A study of Mus musculus with 42 samples.

Results

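The genes described here encode the machinery of oxidative phosphorylation. Members were taken by symbol: protein-coding genes whose names start with Nduf, Uqcr, Sdha to Sdhd, Cox4i, Cox5, Cox6, Cox7, Cox8 or Atp5, the genes Cyc1 and Cycs, and the protein-coding genes of the mitochondrial genome. The rule found 112 of the 43629 genes in the table, of which 99 are nuclear and 13 mitochondrial. The nuclear members were divided into 36 subunits of complex I, 4 of complex II, 9 of complex III, 20 of complex IV, 17 of complex V, 12 assembly factors (Ndufaf and Sdhaf genes) and cytochrome c. The mitochondrial members comprised 7 subunits of complex I, 1 of complex III, 3 of complex IV and 2 of complex V.

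RNA was measured by CEL-seq, in which a read comes from near the 3′ end of a polyadenylated transcript, in male UM-HET3 mice, a genetically heterogeneous cross. Mice received a compound in a Purina 5LG6 diet from 3 months of age and tissue was taken after 1 month, at 4 months. In kidney the compounds were AS-703026 (30 ppm, an inhibitor of the kinase MEK), ascorbyl-palmitate (6.3 ppm, a fat-soluble ester of vitamin C), AZD8055 (20 ppm) and KU0063794 (10 ppm), both inhibitors of the kinase mTOR, enzastaurin (75 ppm, an inhibitor of protein kinase C) and GDC-0941 (50 ppm, an inhibitor of phosphoinositide 3-kinase), each with 4 libraries, and 6 libraries came from control littermates, also male and 4 months old. In liver, AS-703026, enzastaurin and GDC-0941 were analysed at the same doses with 4 libraries each, and no liver control was analysed here. The submitters call the libraries biological replicates.

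In oxidative phosphorylation, complex I takes electrons from NADH and complex II from succinate, and both pass them through ubiquinone to complex III, from there through cytochrome c to complex IV, and finally to oxygen. Complexes I, III and IV move protons across the inner mitochondrial membrane, and complex V, the ATP synthase, makes ATP as the protons flow back. All complexes but complex II combine subunits encoded in the nucleus with subunits encoded in mitochondrial DNA, and the proximal tubule of the kidney is known for its dense mitochondria and its reliance on this pathway for the energy of reabsorption.

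Libraries held 863605 to 5691067 counts in kidney and 1084591 to 4361115 in liver. Mitochondrial members took 5.45% to 13.4% of the counts of a kidney library (median 8.76%) and 1.95% to 3.12% of a liver library (median 2.81%). Nuclear members took 2.71% to 5.05% in kidney (median 4.04%) and 1.73% to 2.28% in liver (median 2.11%). A set of 13 gene models rich in satellite-like repeats took 0.0350% to 29.0% of the counts of a kidney library, and 11 of the 30 kidney libraries lay at 5% or above. Of the kidney libraries, AZD8055 replicate 4 stood apart. Its 9 white or general adipocyte markers summed to 29862 CPM (counts scaled to a common library size), against 74.7 to 336 in the other 29 libraries, and its 7 brown adipocyte markers to 6072 CPM against 2.43 to 49.8. The brown adipocyte uncoupler Ucp1 was at 4140 CPM, while Zic1 of the same list was at 0. Cpt1b, also of that list, was at 0 in every kidney and liver group. Its 9 proximal tubule markers summed to 13515 CPM against 38622 to 68110 elsewhere. Results that involve this library are therefore given with it and without it. In bulk tissue, fewer cells of a type and less RNA per cell cannot be told apart.

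Of the 13 mitochondrial genes, 7 carried nearly all of the mitochondrial counts. Over the 30 kidney libraries, mt-Nd4 held 1746375 counts, mt-Cytb (cytochrome b, the mitochondrial subunit of complex III) 1468328, mt-Nd1 1307373, mt-Nd2 972664, mt-Nd6 872236, mt-Nd5 198530 and mt-Co1 (the catalytic subunit of complex IV) 28697. The other complex IV subunits mt-Co2 and mt-Co3 held 150 and 184 counts, and the complex V subunit mt-Atp6 held 243. mt-Nd3 and mt-Nd4l held 1 count each and mt-Atp8 held 0. Liver had the same 7 genes at the top, from 419181 counts of mt-Nd4 to 6238 of mt-Co1, and none of the remaining mitochondrial genes above 42 counts. mt-Nd6 lies on the opposite strand to mt-Nd5, and the strand setting of the counting is not given in the sources used here.

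The genes with few counts were those whose 3′ ends also occur in nuclear DNA, with the exception of mt-Atp8. Of the 36-base words in the last 300 bases, 100% were found in another gene model for mt-Co1 and mt-Co2, 99.6% for mt-Co3 and 98.9% for each of mt-Atp6, mt-Nd3 and mt-Nd4l, against 0% for mt-Nd1 and mt-Nd4 and 36.2% for mt-Nd2. For mt-Atp8 the share was 4.73%, and its end overlaps mt-Atp6 on the same strand. A nuclear copy on chromosome 1, the pseudogene Gm28437 (GRCm38 chr1:24613189-24613971, minus strand), matches 783 of the 784 bases of mt-Co3 (mitochondrial genome, bases 8607 to 9390) with 0 differences. Their last 60 bases are shown because a read of the shared stretch fits both, together with the last 60 bases of mt-Nd1 (bases 2751 to 3707), whose end occurs in no other gene model. All are in lower case, with no motif marked.
mt-Co3: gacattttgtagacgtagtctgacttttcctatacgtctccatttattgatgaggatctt
Gm28437: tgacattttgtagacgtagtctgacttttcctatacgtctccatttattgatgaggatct
mt-Nd1: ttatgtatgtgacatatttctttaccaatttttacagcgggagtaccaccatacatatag
Gm28437 itself held 307 counts in kidney and 95 in liver, against 184 and 25 for mt-Co3, so neither locus was counted at the level of mt-Nd1. For mt-Co2, the copy Gm28661 (681 bases, 0 differences) held 439 and 61 counts, and for mt-Atp6 the copy Gm10925 (678 bases, 0 differences) held 419 and 70. How the authors' counting treated reads that fit several places is not given in the sources used here. The levels of mt-Co1, mt-Co2, mt-Co3, mt-Atp6, mt-Nd3 and mt-Nd4l are therefore uncertain. That of mt-Nd6 is uncertain as well, because the strand setting is not given. The mitochondrial sums below are mostly mt-Nd4, mt-Cytb, mt-Nd1, mt-Nd2 and mt-Nd6.

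**Figure D1:**
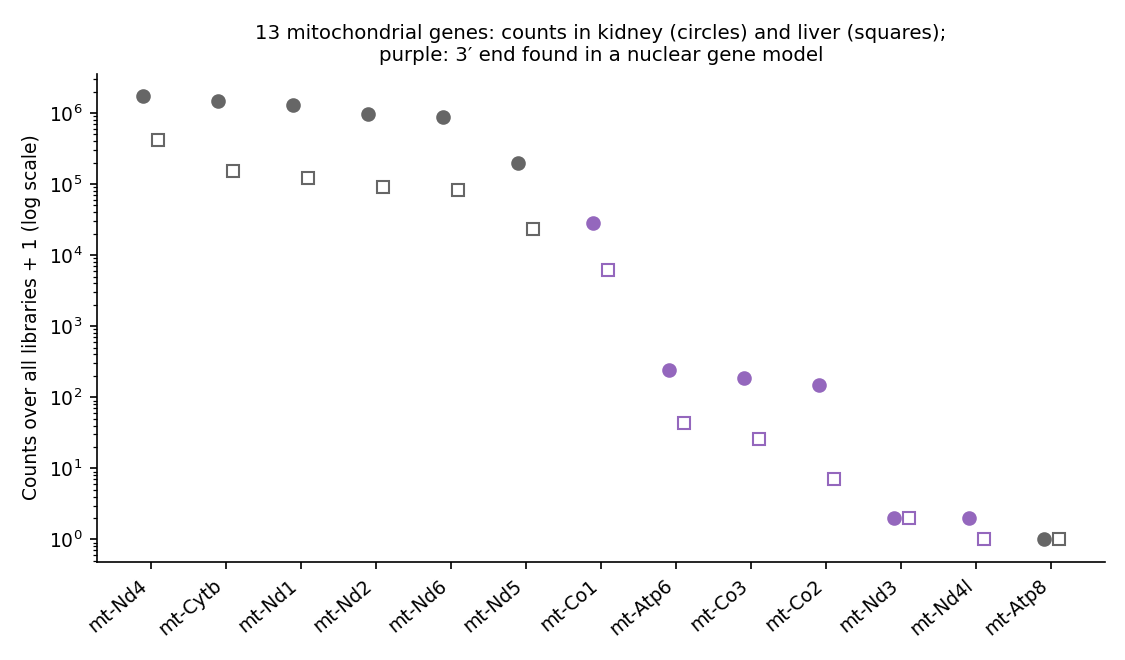
Counts plus 1, on a log axis, of the 13 protein-coding mitochondrial genes, summed over the 30 kidney libraries (circles) and the 12 liver libraries (squares), with purple for genes whose 3′ end is also found in a nuclear gene model. The counts fall from 1746375 for mt-Nd4 in kidney to 0 for mt-Atp8.

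In kidney, the mean level of the nuclear subunit transcripts lay between 1.02 and 1.30 times the control mean under the 6 compounds, and that of the mitochondrial transcripts between 0.827 and 1.07 times. The summed CPM of the nuclear subunits and cytochrome c in the 6 controls was 34295, 38953, 31241, 32362, 29995 and 41753, a mean of 34766 ± 4638 (SD, n = 6). Under ascorbyl-palmitate the sums were 43776, 39534, 47319 and 35568 (41549 ± 5102, SD, n = 4), or 1.20 times the control mean. Under GDC-0941 they were 35385, 45128, 47398 and 40441 (42088 ± 5326), or 1.21 times. In both groups 2 libraries lay above every control and the others lay within the control range.

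The 2 mTOR inhibitors gave sums of 40047, 41990, 43357 and 55791 for AZD8055 (45296 ± 7127, SD, n = 4) and 35215, 40320, 41782 and 42861 for KU0063794 (40045 ± 3384). The AZD8055 mean was 1.30 times the control mean with replicate 4 and 1.20 times without it, and the KU0063794 mean was 1.15 times. Enzastaurin gave 35117, 40726, 36749 and 40767 (38340 ± 2858), all within the control range, at 1.10 times the control mean. AS-703026 gave 37273, 32710, 40682 and 31561 (35557 ± 4214), also all within the control range, at 1.02 times. The 6 comparisons share the same controls, and no test was run on a sum over chosen genes.

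By complex, the ratios to the control mean were close to each other within a compound. Under ascorbyl-palmitate they ran from 1.17 for complex II to 1.24 for complex IV, under GDC-0941 from 1.16 for complex II to 1.25 for complex IV, and under KU0063794 from 1.12 for complex I to 1.20 for complex II. Under AZD8055 they were 1.30 for complex I, 1.48 for complex II, 1.40 for complex III, 1.35 for complex IV and 1.22 for complex V. Without replicate 4 the same ratios were 1.19, 1.22, 1.22, 1.18 and 1.22, so the spread between complexes went with that library. Assembly factors lay between 0.981 times the control mean under AS-703026 and 1.14 times under AZD8055 (1.11 without replicate 4).

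The group means of the mitochondrial sums spanned less than the libraries within each group did. The 6 controls ran from 64505 to 125577 CPM (95589 ± 22857, SD, n = 6). The means were 79026 ± 22783 under AS-703026 (0.827 times control), 87877 ± 14532 under ascorbyl-palmitate (0.919 times), 94096 ± 12144 under AZD8055 (0.984 times, and 0.938 without replicate 4), 102382 ± 27167 under enzastaurin (1.07 times), 92042 ± 33679 under GDC-0941 (0.963 times) and 82788 ± 10561 under KU0063794 (0.866 times), each with SD and n = 4. A single library reached above the controls under enzastaurin (replicate 2, 138844 CPM) and under GDC-0941 (replicate 2, 139813 CPM).

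**Figure D2:**
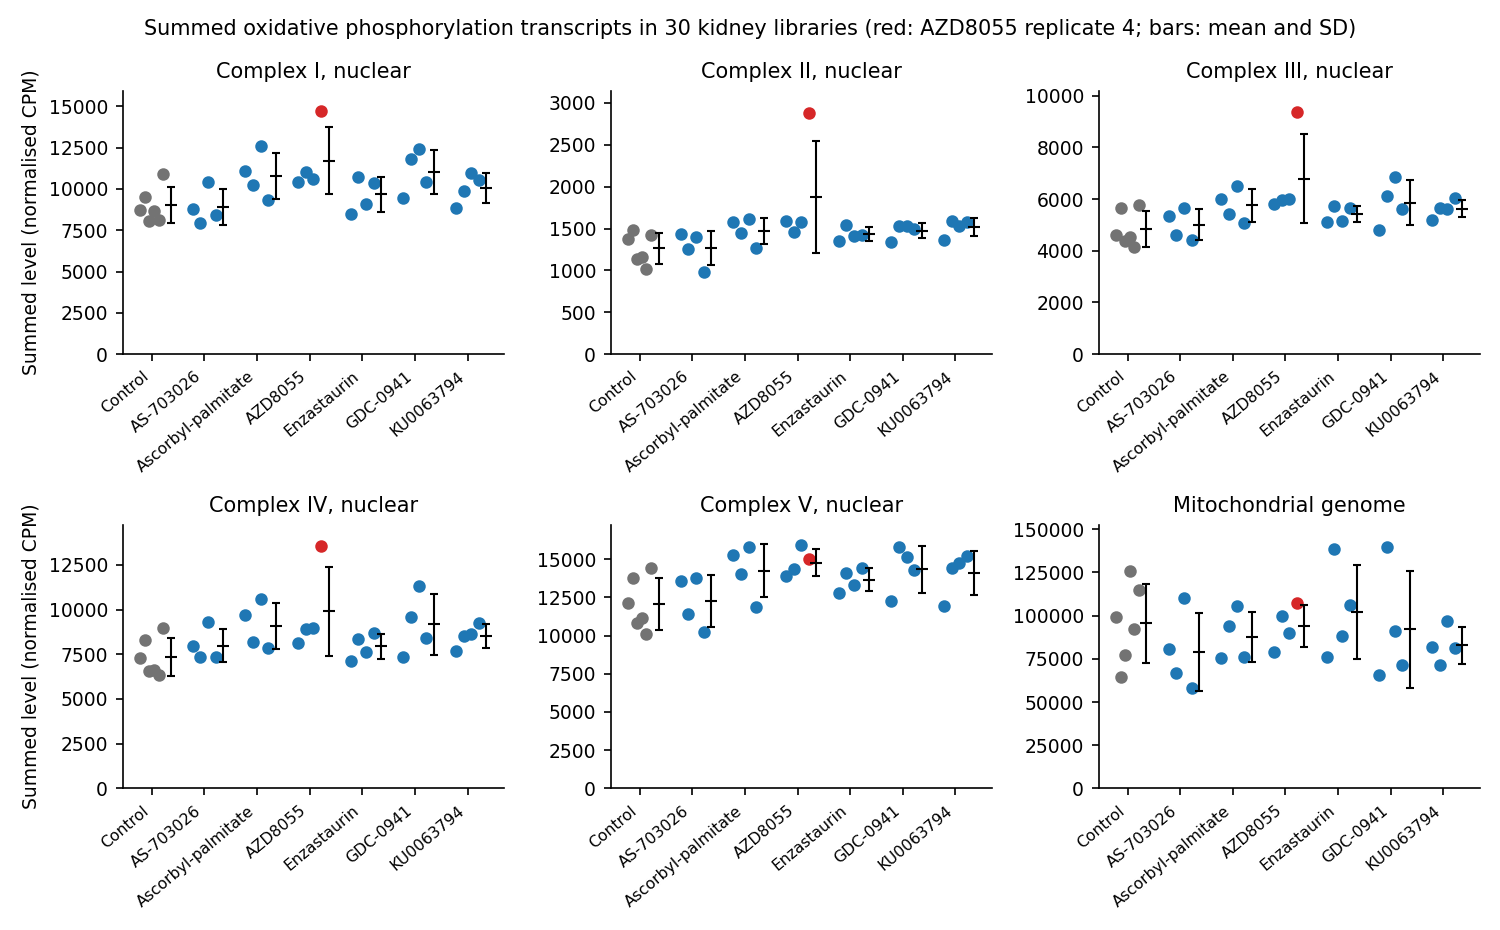
Summed normalised CPM in each kidney library (points) with the group mean and SD (bars), for the nuclear subunits of complexes I to V and for the mitochondrial genes, in the controls and under the 6 compounds. AZD8055 replicate 4 (red) is the highest of the 30 libraries for complexes I to IV, at 14705, 2875, 9361 and 13541 CPM.

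Against control, 18 nuclear members rose under AZD8055, and no mitochondrial member did. Of the 98 members tested, 18 were higher and 0 lower by edgeR's quasi-likelihood test (Benjamini-Hochberg adjusted p under 0.05 over all 11719 genes), where 3.77% of all genes were called higher and 5.46% were called in either direction. The members' median log2 change was 0.30, against 0.03 for all genes tested. Without replicate 4, 0 of 99 members were called, 0.204% of 12227 genes were called and the members' median log2 change was 0.19, with 20 members up and 2 down by an unadjusted p under 0.05. Leaving out a control in place of that library also lowered the count, to 10, 8, 5 and 6 members without controls 1, 3, 4 and 5. With AZD8055 and the controls fitted alone 0 members were called, and 25 by DESeq2.

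The called members were 9 of 34 tested subunits of complex I, 1 of 4 of complex II, 4 of 9 of complex III, 3 of 13 of complex IV and 1 of 16 of complex V. None of the 12 assembly factors, of the 9 tested mitochondrial genes or cytochrome c was called. Whether these shares differ was not tested. In complex I, Ndufa10, an accessory subunit, was at 352, 375, 354 and 825 CPM under AZD8055 and at 230 to 358 CPM in the controls (median 256; log2 change 0.77, edgeR adjusted p = 0.0211). One AZD8055 library lay far above the others and 2 of the remaining 3 lay within the control range. Ndufb8, another accessory subunit, was at 516, 626, 572 and 987 CPM against 340 to 486 CPM (median 385; log2 change 0.75, edgeR adjusted p = 0.0163), with all 4 libraries above all controls. Ndufb11, a subunit of the membrane arm, was at 278, 295, 296 and 294 CPM against 174 to 275 CPM (median 193; log2 change 0.47, edgeR adjusted p = 0.0302). Here replicate 4 was like the other AZD8055 libraries, and the groups did not overlap.

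Other called genes of complex I were the NADH-binding subunit Ndufv1 (log2 change 0.68), the iron-sulfur subunits Ndufs7 (0.59) and Ndufs8 (0.57), the acyl carrier subunit Ndufab1 (0.56), and the accessory subunits Ndufb9 (0.67) and Ndufc1 (0.55). In complex II, Sdhb, the iron-sulfur subunit, was at 604, 595, 633 and 820 CPM under AZD8055 against 330 to 569 CPM in the controls (median 397; log2 change 0.62, edgeR adjusted p = 0.0179). All 4 libraries lay above all controls. In complex III, the core subunits Uqcrc1 (log2 change 0.76) and Uqcrc2 (0.69), cytochrome c1 (Cyc1, 0.66) and the Rieske iron-sulfur protein Uqcrfs1 (0.57) were called. Uqcrc1 was at 440, 407, 479 and 913 CPM against 245 to 456 CPM (median 308), so that 2 libraries lay within the control range and replicate 4 lay far above it. The end of Uqcrc2 overlaps that of another gene, Pdzd9, and its value is uncertain for that reason.

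In complex IV, Cox4i1 (log2 change 0.48), Cox6a1 (0.76) and Cox7a1 (2.03) were called, and in complex V the catalytic beta subunit Atp5b (0.57). Atp5b was at 1969, 2019, 2196 and 2959 CPM under AZD8055 and at 1178 to 2005 CPM in the controls (median 1466; edgeR adjusted p = 0.0299), with 1 AZD8055 library within the control range. Without replicate 4, the 18 genes had log2 changes from 0.22 for Cox7a1 to 0.54 for Ndufs8, and each missed the threshold.

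AZD8055 replicate 4 differed from the other kidney libraries in the proportions of the subunits and not only in their level. Of 98 members, 42 lay above the range of the other 29 libraries and 3 below it, and of all 11719 genes 2253 (19.2%) lay above and 1766 (15.1%) below. All 4 subunits of complex II lay above the range, as did 16 of 34 in complex I, 6 of 9 in complex III, 6 of 13 in complex IV, 5 of 16 in complex V and 0 of the 9 mitochondrial genes. The sum of complex II was 2.01 times the median of the other libraries, complex III 1.66 times, complex IV 1.64 times and complex I 1.44 times. Complex V, at 14985 CPM, was 1.08 times the median and below the highest of the others, 15911 CPM, and the mitochondrial sum was 1.21 times.

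Within complex V, Atp5a1 and Atp5b of the catalytic head and Atp5g1 and Atp5g3 of the membrane ring moved apart in that library. Atp5b, of the head, was at 2959 CPM against at most 2197 CPM in the other 29 libraries, and Atp5a1, the other main subunit of the head, at 2687 CPM against at most 2034 CPM. Of the genes for the ring-forming c subunit, Atp5g1 was at 92.0 CPM against 127 to 471 CPM and Atp5g3 at 2401 CPM against 3020 to 4843 CPM. Atp5g1 also varied widely within a group elsewhere: in liver it was at 390, 53.2, 492 and 60.2 CPM under enzastaurin. Atp5g2, also a c-subunit gene, did not pass the filter in kidney. The ratio of Atp5g1 to Atp5b was 0.0311 in replicate 4 and 0.0848 to 0.229 in the others. The ratio of Atp5g3 to Atp5b was 0.811 against 1.82 to 2.65. Both are ratios of 3′-end counts and are compared between libraries, not between genes.

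Complex IV isoforms also shifted. Cox7a1, the isoform known from heart, muscle and brown fat, was at 16.7, 9.75, 18.3 and 164 CPM under AZD8055, and the controls ran from 8.79 to 17.4 CPM (median 11.8; log2 change 2.03, SE 0.47, edgeR adjusted p = 0.0124). Replicate 4 was 11.1 times the median of the other 29 libraries, and 2 of the other 3 AZD8055 libraries lay in the control range. Its ratio to Cox7a2, the widely expressed isoform, was 0.585 against 0.0225 to 0.0797 elsewhere. Cox8b, another isoform of muscle and brown fat, did not pass the filter on low counts. It was at 0.427, 2.09, 0 and 509 CPM under AZD8055, at 0 to 3.26 CPM in the controls and at most at 12.1 CPM in any other kidney library. The muscle isoform Cox6a2 was at 0.514 CPM in replicate 4 and at 0 to 11.3 CPM elsewhere, while the widely expressed Cox6a1 was at 3830 CPM against at most 1996 CPM. Cox8b is also 1 of the 7 brown adipocyte markers named above, and the part of adipocyte RNA in these values was not tested.

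**Figure D3:**
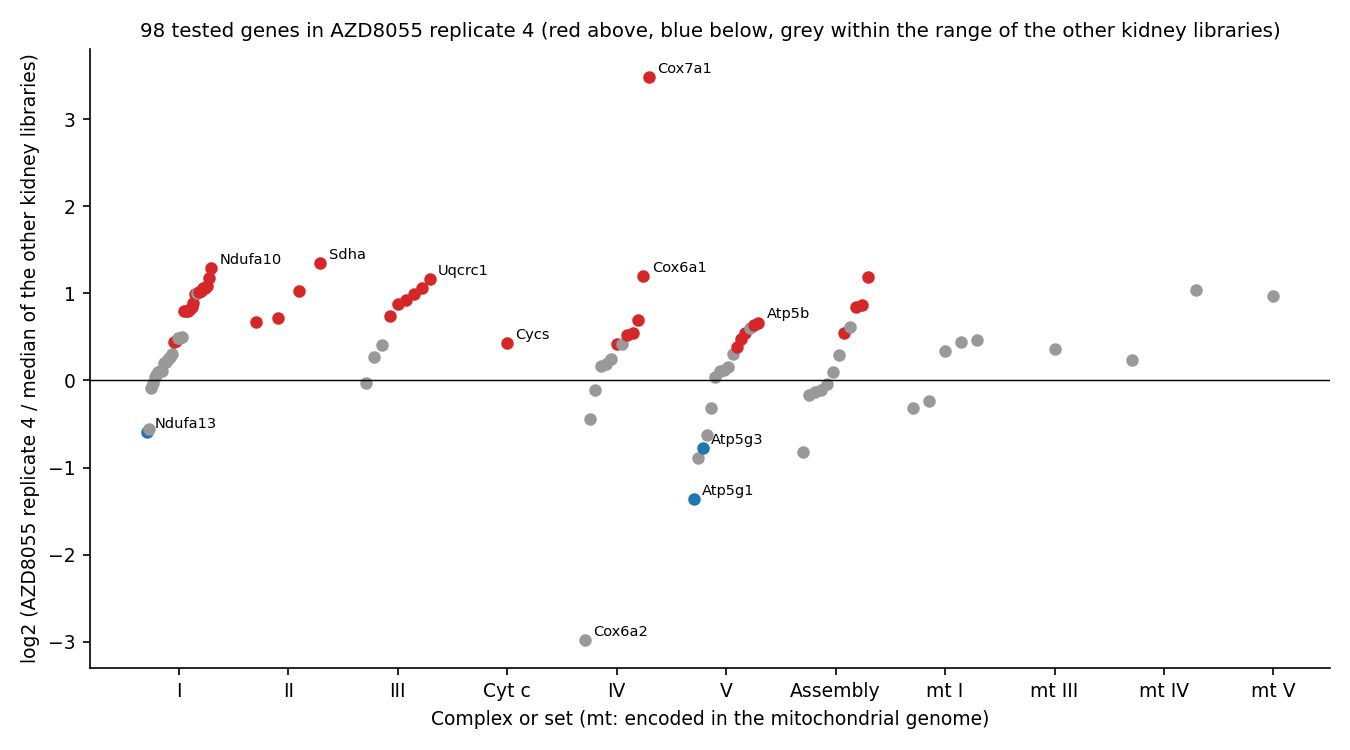
Log2 of the level in AZD8055 replicate 4 over the median of the other 29 kidney libraries, with a point for each of the 98 tested members, arranged by complex and genome, with red above, blue below and grey within the range of the other libraries. All 4 complex II genes are red, Atp5g1 and Atp5g3 in complex V are blue, and the 9 mitochondrial genes are grey.

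The upstream sequences of 2 complex IV genes called under AZD8055 are shown, to set a gene of restricted expression beside one expressed in most tissues. Each runs over the 250 bases before the RefSeq start (GRCm38.p6), 5′ to 3′ on the gene's strand, with capitals on matches to the NRF1 motif (spelled out by the capitals in the windows of Cox6a1 and Atp5k) and the ETS motif CCGGAAG on either strand. Cox7a1 (ENSMUSG00000074218) lies at chr7:30184144-30186078 on the plus strand, and its upstream window at chr7:30183921-30184170 is 51.2% GC with 4 CpG and no match. Cox6a1 has its window at chr5:115348959-115349208 on the minus strand, with 62.8% GC, 26 CpG, NRF1 matches at -162 to -153 and -117 to -108 and an ETS match at -16 to -10. In both genes the RefSeq start lies inside the annotated gene span, so the window overlaps that span. The ETS match of Cox6a1 lies in the overlap.
Cox7a1: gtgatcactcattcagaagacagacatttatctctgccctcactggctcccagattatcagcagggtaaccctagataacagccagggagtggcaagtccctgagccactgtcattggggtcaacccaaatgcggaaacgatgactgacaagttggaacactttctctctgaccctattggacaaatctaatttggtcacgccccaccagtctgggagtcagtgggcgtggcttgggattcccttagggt
Cox6a1: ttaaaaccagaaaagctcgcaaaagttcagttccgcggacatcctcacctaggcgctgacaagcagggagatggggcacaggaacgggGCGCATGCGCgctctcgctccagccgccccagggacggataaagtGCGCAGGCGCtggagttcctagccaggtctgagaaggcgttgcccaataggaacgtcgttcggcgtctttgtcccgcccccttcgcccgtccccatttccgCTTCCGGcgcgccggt
Over the 79 nuclear members with a RefSeq window, 14 (17.7%) held the NRF1 motif, against 1144 of 27025 promoters in the table (4.23%), and 16 (20.3%) held the ETS motif, against 2115 (7.83%). By complex the NRF1 motif was found in 6 of 32 windows of complex I, 2 of 3 of complex II, 0 of 5 of complex III, 1 of 14 of complex IV and 4 of 13 of complex V. The ERR motif TNAAGGTCA was found in 2 windows (2.53%, against 1.30% of all) and the YY1 motif AAGATGGCG in 1 (1.27%, against 0.711%). These motifs are known binding sequences of activators of respiratory genes, a match in a window is a description of its letters, and the windows of all genes differ from these in base composition, which was not matched.

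Other mitochondrial genes in the AZD8055 comparison were read from lists of neighbouring steps. Their counts stand beside 3.77% of all genes called higher and 5.46% called in either direction. Of 17 tested genes of the citric acid cycle and pyruvate dehydrogenase, 11 were higher and 0 lower, led by the isocitrate dehydrogenase subunit Idh3a (log2 change 1.38), citrate synthase (Cs, 1.34), the pyruvate dehydrogenase subunit Pdhb (1.34) and the succinyl-CoA ligase subunit Sucla2 (1.18), with a median of 0.72. Of 12 genes of ubiquinone synthesis, Coq8a (1.24), Coq5 (0.92) and Coq9 (0.62) were higher. Of 31 assembly factors outside the rule, Atpaf2 (1.30), Foxred1 (1.16), Uqcc1 (0.88) and Cox18 (0.82) were higher. Of 13 carriers, uncouplers and antioxidants, the uncoupling protein homologue Ucp2 (1.32) and the mitochondrial thioredoxin Txn2 (0.49) were higher. Of 20 regulators of mitochondrial gene expression only the nuclear receptor Esrra was higher (0.64, edgeR adjusted p = 0.0432), a share near that of all genes. Without replicate 4, 0 genes of any of these lists were called (background 0.204%). In that library Cs was at 1730 CPM, while the 6 controls lay between 230 and 277 CPM.

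Under AS-703026, 1 member was called, a share near that of all genes. Cytochrome c (Cycs, ENSMUSG00000063694, GRCm38 chr6:50562563-50566538, minus strand), the mobile carrier between complexes III and IV, was the only one of 98 members called, and 0.922% of all genes were called (0.469% lower). It was at 193, 138, 188 and 143 CPM under AS-703026 (166 ± 28.9, SD, n = 4) and at 181 to 278 CPM in the controls (median 248; 245 ± 34.5, SD, n = 6), a log2 change of -0.57 (SE 0.14, edgeR adjusted p = 0.0467). AS-703026 replicates 1 and 3 lay above the lowest control, so the groups overlapped, and the other 5 controls lay between 243 and 278 CPM.

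Without AZD8055 replicate 4 in the fit it was again the only member called (background 2.77%). The call was lost without AS-703026 replicate 2 or 4 and without control 1, 3, 4, 5 or 6. Satellite-like counts moved with the group: they took 0.287%, 29.0%, 5.97% and 16.6% of the AS-703026 libraries and 0.0555% to 12.5% of the controls (median 1.44%). With that share as a covariate, or with AS-703026 and the controls fitted alone, 0 members were called. Leaving out the libraries at 5% or above kept only AS-703026 replicate 1, so that setting cannot decide whether the call depends on satellite-like counts. Marker lists moved with the group too: the kidney injury list (4 of 4 genes with counts) summed to 28.3 to 197 CPM under AS-703026 and 5.16 to 26.1 CPM in the controls, the thick ascending limb list (6 of 6) to 2710 to 3470 CPM and 1879 to 2597 CPM, and the thin limb and inner medulla list (6 of 6) to 215 to 3648 CPM and 134 to 174 CPM. These ranges did not overlap, those of the proximal tubule list did (38622 to 52973 CPM and 43183 to 55881 CPM), and the part of cell makeup or injury in these values was not tested. The 9 mitochondrial genes tested all lay below the control level under AS-703026 (median log2 change -0.36, against 0.02 for all genes), and none was called. For example, mt-Nd1 was at 14968, 11247, 22769 and 12239 CPM, and at 12413 to 23868 CPM in the controls (median 17847). That AS-703026 replicate 3 lay near the top of the control range while replicates 2 and 4 lay below all controls shows how wide these levels were. Among the carriers, Ucp2 was higher under AS-703026, at 257 to 592 CPM against 86.9 to 216 CPM (log2 change 1.40, SE 0.30, edgeR adjusted p = 0.0334), and the groups did not overlap. Without AS-703026 replicate 4, without control 4 or 5, or with the replicate number as a block, 0 genes of the whole table were called under AS-703026, Ucp2 among those lost. No other gene of the 5 lists was called under AS-703026, nor any under ascorbyl-palmitate, enzastaurin, GDC-0941 or KU0063794.

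The remaining 4 compounds gave no called member by edgeR. Under ascorbyl-palmitate 0 of 98 were called (background 0.0427% of all genes), with 23 up and 1 down by an unadjusted p under 0.05 and 4 called by DESeq2. Under GDC-0941 0 were called (background 0.137%), with 29 up and 0 down by an unadjusted p under 0.05 and 2 called by DESeq2. Under KU0063794 0 were called (background 0.0427%), with 7 up and 3 down unadjusted and 0 by DESeq2, and under enzastaurin 0 were called (background 0%), with 0 unadjusted and 0 by DESeq2. The members' median log2 changes were 0.23, 0.25, 0.16 and 0.10, against medians of all genes from -0.02 to 0.01. Under ascorbyl-palmitate, 2 members were called without control 2 or without control 6, and without control 6 there was also 1 under GDC-0941 and 1 under KU0063794. Without AZD8055 replicate 4, which shares the fit, 0 members were called under each of the 4 compounds, where 0.0573%, 0.286%, 0.0409% and 0% of all genes were called under ascorbyl-palmitate, GDC-0941, KU0063794 and enzastaurin.

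The 2 complex I subunits Ndufs8 and Ndufb9 show what lies behind these values. Ndufs8 (ENSMUSG00000059734, GRCm38 chr19:3908863-3912774, minus strand), which carries iron-sulfur clusters in the arm facing the matrix, was at 57.8 to 102 CPM in the controls (median 60.8). It was at 123, 78.7, 112 and 111 CPM under AZD8055, 90.4, 101, 117 and 95.6 under ascorbyl-palmitate, 85.4, 104, 112 and 95.0 under GDC-0941, 88.3, 94.7, 108 and 105 under KU0063794, 85.2, 93.6, 80.8 and 90.0 under enzastaurin, and 87.5, 78.0, 86.6 and 78.5 under AS-703026. Every treated library lay above the control median, and each group overlapped the highest control. The log2 changes were 0.50 under ascorbyl-palmitate, 0.47 under GDC-0941, 0.47 under KU0063794 and 0.29 under enzastaurin, with edgeR adjusted p-values of 0.127, 0.177, 0.262 and 0.648. All of these comparisons share the same controls.

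Ndufb9 (ENSMUSG00000022354, GRCm38 chr15:58933756-58939488, plus strand), an accessory subunit of the membrane arm, was at 209 to 317 CPM in the controls (median 244). It was at 404, 330, 441 and 315 CPM under ascorbyl-palmitate (log2 change 0.55, edgeR adjusted p = 0.134) and at 330, 369, 458 and 330 CPM under GDC-0941 (log2 change 0.54, SE 0.16, edgeR adjusted p = 0.151). The GDC-0941 libraries lay above all controls and 1 ascorbyl-palmitate library lay just below the highest. Under AZD8055 it was at 337, 358, 351 and 572 CPM, above all controls, and it was called (log2 change 0.67, edgeR adjusted p = 0.0159). Under KU0063794 it was at 248, 297, 392 and 343 CPM, under enzastaurin at 260, 343, 289 and 334 CPM and under AS-703026 at 295, 234, 344 and 266 CPM, all 3 overlapping the controls. In an F test for any difference among the 7 kidney groups, 1 of 98 members was called (background 2.51%), Cox7a1, with an edgeR adjusted p of 0.0335. Cycs followed at 0.0786, Sdhaf1, an assembly factor of complex II, at 0.0935 and Ndufb9 at 0.106. Without AZD8055 replicate 4 (background 1.15%), or without control 1, 3, 4 or 5, 0 were called.

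In liver, where the compounds were compared with each other, AS-703026 had the lowest nuclear sums. They were 18418, 20241, 19188 and 19897 CPM under AS-703026 (19436 ± 808, SD, n = 4), 21607, 22023, 20843 and 22583 under enzastaurin (21764 ± 733) and 20551, 19623, 21030 and 20888 under GDC-0941 (20523 ± 633). The AS-703026 and enzastaurin libraries did not overlap, and the GDC-0941 libraries overlapped both. The mitochondrial sums overlapped in all 3 groups, at 24979 ± 4470 under AS-703026, 28169 ± 3503 under enzastaurin and 26255 ± 2369 under GDC-0941 (SD, n = 4 each).

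Against enzastaurin, 1 of 97 members tested was lower under AS-703026 (background 2.96% of 9490 genes in either direction, 1.03% lower). The share of members called lower was near that of all genes. The called member was Atp5k (ENSMUSG00000050856, GRCm38 chr5:108433244-108434448, minus strand), which encodes the small membrane subunit e of the ATP synthase, where dimers of the enzyme form. It was at 154, 195, 169 and 189 CPM under AS-703026 and at 246, 227, 234 and 225 CPM under enzastaurin (log2 change -0.40, SE 0.09, edgeR adjusted p = 0.0315), and the groups did not overlap. Under GDC-0941 it was at 198, 200, 193 and 207 CPM, between the 2 groups but for replicate 3, which lay below AS-703026 replicate 2. In all, 85 of 97 members lay below 0 on the log2 scale (median -0.15, against -0.01 for all genes) and 20 passed an unadjusted p of 0.05, all lower. The next members were Ndufb9 (-0.35, edgeR adjusted p = 0.0611), Cox6b1 (-0.31, 0.0690), Ndufaf4 (-0.49, 0.0729) and Ndufs1 (-0.32, 0.0954). DESeq2 called 8 members in this comparison, and edgeR 0 when the 2 groups were fitted alone.

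The Atp5k call was lost without AS-703026 replicate 1 or 3 and without enzastaurin replicate 1 or 3, and there were 2 called members without AS-703026 replicate 2. Satellite-like counts took 0.857% to 1.77% of the AS-703026 liver libraries and at most 0.645% of the others, and with that share as a covariate 0 members were called. Marker lists moved with AS-703026 in liver as well: the erythroid list (5 of 5 genes with counts) summed to 5061 to 8654 CPM, against 1359 to 3554 CPM under enzastaurin and 2057 to 4687 CPM under GDC-0941, and the kidney injury list (3 of 4 genes, with Havcr1 at 0) to 326 to 2554 CPM, against 161 to 212 CPM and 115 to 174 CPM. These ranges did not overlap, the hepatocyte sums of the 3 groups did, and the part of these differences in the nuclear sums and in Atp5k was not tested. The kidney injury list was made for kidney, so its sum in liver is not a measure of liver injury. The window of 250 bases before the RefSeq start of Atp5k (chr5:108434400-108434649, minus strand, GRCm38.p6) has 57.6% GC and 13 CpG. It holds an NRF1 match at -50 to -41, in capitals. The RefSeq start lies inside the gene span given above, so the window overlaps that span, and nearly all of the match lies in the overlap.
Atp5k: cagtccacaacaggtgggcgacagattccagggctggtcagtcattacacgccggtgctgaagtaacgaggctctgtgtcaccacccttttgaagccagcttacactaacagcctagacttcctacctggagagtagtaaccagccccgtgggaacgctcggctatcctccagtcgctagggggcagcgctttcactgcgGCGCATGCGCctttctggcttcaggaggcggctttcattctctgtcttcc

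Against GDC-0941, 0 of 97 members were called under AS-703026 (background 3.22%), with 2 up and 10 down by an unadjusted p under 0.05 and 4 called by DESeq2. The lowest p belonged to Ndufaf4, an assembly factor of complex I, at 40.2, 47.1, 38.7 and 42.4 CPM under AS-703026 and 51.5, 62.4, 66.9 and 57.1 CPM under GDC-0941 (log2 change -0.51, edgeR adjusted p = 0.0560). The groups did not overlap. Enzastaurin and GDC-0941 differed in 0 members (background 0%), with 6 higher under enzastaurin at an unadjusted p under 0.05 and 0 by DESeq2. In the F test for any difference in liver, 0 were called (background 3.2%), with 17 at an unadjusted p under 0.05 and 7 called by DESeq2. Atp5k had an adjusted p of 0.0660 in that test by edgeR. Of the neighbouring lists, Txn2 was lower under AS-703026 than under enzastaurin, at 210 to 222 CPM against 293 to 323 CPM (log2 change -0.50, edgeR adjusted p = 0.0042). With the satellite-like counts as a covariate, 1 gene of the whole table was called in that comparison.

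Kidney and liver were compared over the 24 libraries of AS-703026, enzastaurin and GDC-0941, as the mean over these compounds. Whether a kidney and a liver library came from 1 animal is not stated in the sources used here. Kidney had more mitochondrial RNA for its total and proportionally higher sums of complex IV and complex V transcripts, and single subunits differed in both directions. Of 100 members tested, 79 were called by edgeR, 45 higher and 34 lower in kidney. This share was near that of all genes, as 77.4% of all 12262 genes were called (39.2% higher and 38.2% lower). The members' median log2 difference was 0.10 with TMM scaling, 0.21 with RLE scaling and 0.77 with no scaling beyond library size. The medians of all genes under the same scalings were 0.05, 0.16 and 0.72. With RLE scaling 52 members were higher and 30 lower, and with none 74 were higher and 13 lower. The 45 higher members were higher under each of these, and 13 were lower under each. Of the 34 lower members, 9 were called higher with no scaling.

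Mitochondrial sums were 71154 ± 21258 CPM in kidney and 33225 ± 4530 CPM in liver (SD, n = 12 each), a ratio of 2.14, and 3.37 without scaling factors. Nuclear subunits summed to 30203 ± 3770 CPM in kidney and 25829 ± 1718 CPM in liver, a ratio of 1.17, and 1.85 without scaling factors. By complex the ratio was 1.33 for complex V, 1.29 for complex IV, 1.12 for complex I, 0.923 for complex III and 0.811 for complex II, and without scaling factors 1.46 for complex III and 1.28 for complex II. The direction of the summed difference of complexes II and III thus turned with the scaling.

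In complex V, 11 of 17 members were higher and 2 lower in kidney (median log2 difference 0.44), among them Atp5b (0.71) and the stalk subunit Atp5f1 (0.95). In complex II, 3 of 4 were lower and 0 higher: Sdha, its flavoprotein, at -0.36 and Sdhb at -0.30, which became 0.31 and 0.36 with no scaling, and Sdhc, which turned in the same way. Complex I had 11 higher and 14 lower of 35, from Ndufa1 (1.57), Ndufab1 (1.10) and Ndufb3 (0.99) to Ndufv1 (-0.99) and Ndufb4 (-1.81). Of its lower members, Ndufb4, Ndufv1, Ndufb6, Ndufs3 and Ndufa7 stayed lower with no scaling. Ndufb10, Ndufs1, Ndufa2 and Ndufb7 were then not called. Ndufs6 (0.22), Ndufb9 (0.25), Ndufa13 (0.44), Ndufa3 (0.46) and Ndufv3 (0.51) turned to higher. Ndufb4, an accessory subunit, was at 19.6 to 48.4 CPM in kidney (median 35.5) and at 95.9 to 142 CPM in liver (median 123), with no overlap. Complex III had 4 higher and 4 lower of 9, from Uqcrc1 (1.00) to Uqcr11 (-1.37). Assembly factors had 6 higher and 4 lower of 12, from Sdhaf1 (1.53) to Ndufaf8 (-1.21). Cycs was higher in kidney (0.92), at 109 to 219 CPM against 77.5 to 99.5 CPM.

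In complex IV, 6 members were higher and 7 lower of 14. Cox8a, the widely expressed isoform of the smallest subunits, was at 1217 to 2059 CPM in the 12 kidney libraries (median 1473) and at 266 to 354 CPM in the 12 liver libraries (median 292), a log2 difference of 2.36 (SE 0.10, edgeR adjusted p = 5.41e-17). Every kidney library lay above every liver library. Cox7a2 lay the other way, at 172 to 358 CPM in kidney (median 230) and 360 to 503 CPM in liver (median 414), a log2 difference of -0.87, though with no scaling it was -0.19 and missed the threshold. Its partner isoform Cox7a1 was at 4.57 to 15.7 CPM in kidney (median 8.79) and 0 to 3.95 CPM in liver (median 1.36), a log2 difference of 2.43. The muscle isoform Cox6a2 was at 0 to 4.77 CPM (median 3.10) and 0 to 1.21 CPM (median 0), a log2 difference of 3.14. Both are low levels in both tissues, and at such counts the fitted difference depends on the prior count. Among the rest were Cox6a1 (1.00), Cox6b1 (0.84) and Cox4i1 (0.38), which were higher, and Ndufa4 (-0.63), Cox7a2l (-0.73) and Cox5b (-1.04), which were lower. With no scaling Ndufa4 was at 0.05 and Cox7a2l at -0.06, neither of them called, while Cox5b stayed lower at -0.37.

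Some of the largest differences belong to members whose 3′ ends cannot be told from another gene model. Of the 9 tested nuclear members with at least 50% of their end words in another model, 8 were called, 3 higher and 5 lower, with a median log2 difference of -1.59. They include Ndufb6 (-4.71), Cox5a (-3.59), Ndufs3 (-3.18), Atp5g2 (-1.70) and Cox7c (-1.59). Among the other 83 nuclear members, 65 were called, 36 higher and 29 lower, with a median of 0.09. Cox7c shares its end with the processed pseudogene Gm12338, which held 7182 counts in kidney and 1098 in liver. How the split of reads between such pairs differed between the tissues was not tested.

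**Figure D4:**
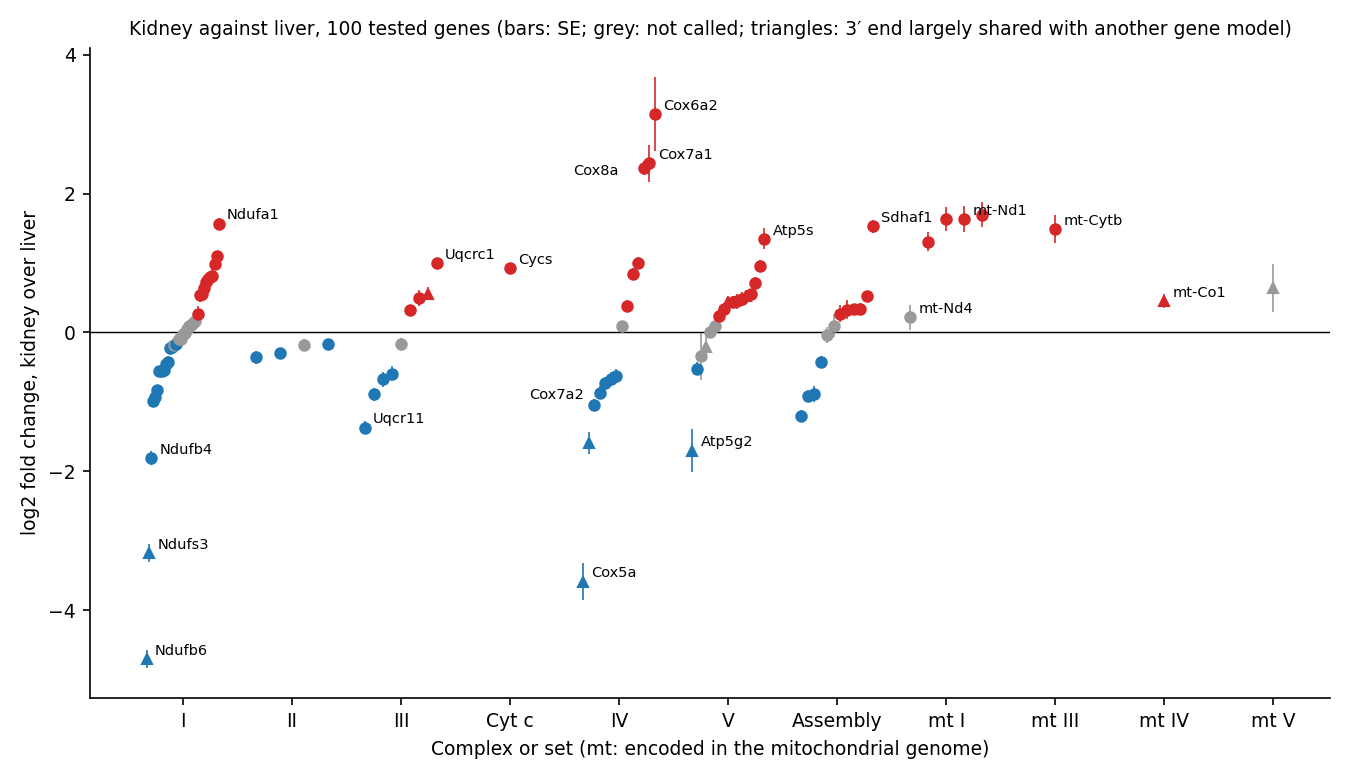
Log2 difference of kidney from liver with its SE (bars) for the 100 tested members, by complex and genome, with grey for members that were not called and triangles for members whose 3′ end is largely shared with another gene model. Values run from 3.14 for Cox6a2 to -4.71 for Ndufb6, a triangle.

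The mitochondrial genes differed in their proportions between the tissues. Of 8 tested, 6 were higher in kidney: mt-Nd2 (log2 difference 1.70), mt-Nd1 (1.63), mt-Nd6 (1.63), mt-Cytb (1.49), mt-Nd5 (1.31) and mt-Co1 (0.46). Of these, the levels of mt-Nd6 and mt-Co1 are uncertain for the reasons given above. mt-Nd4 was not called (0.22, SE 0.18, edgeR adjusted p = 0.275), though with no scaling it was higher in kidney (0.88). mt-Nd1 was at 8860 to 23156 CPM in kidney (median 12619) and 3761 to 5949 CPM in liver (median 4553), with no overlap. mt-Nd4 was at 12712 to 27150 CPM in kidney (median 17688) and 11728 to 19660 CPM in liver (median 15877), and the tissues overlapped.

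The ratio of mt-Nd4 to mt-Nd1 counts, which needs no scaling, was 1.10 to 1.76 in the 30 kidney libraries (median 1.38) and 2.90 to 3.78 in the 12 liver libraries (median 3.38). mt-Nd4 took 22.6% to 29.9% of mitochondrial counts in kidney and 44.0% to 48.3% in liver, and its ratio to mt-Cytb was 0.882 to 1.48 and 2.42 to 3.11. None of these ranges overlapped. Neither the end of mt-Nd1 nor that of mt-Nd4 occurs in another gene model, as set out above. The ratio of mitochondrial to nuclear member counts was 1.63 to 3.81 in kidney (median 2.17) and 1.05 to 1.42 in liver (median 1.29). Because these are ratios of 3′-end counts, they compare the tissues and not the amounts of the 2 transcripts.

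**Figure D5:**
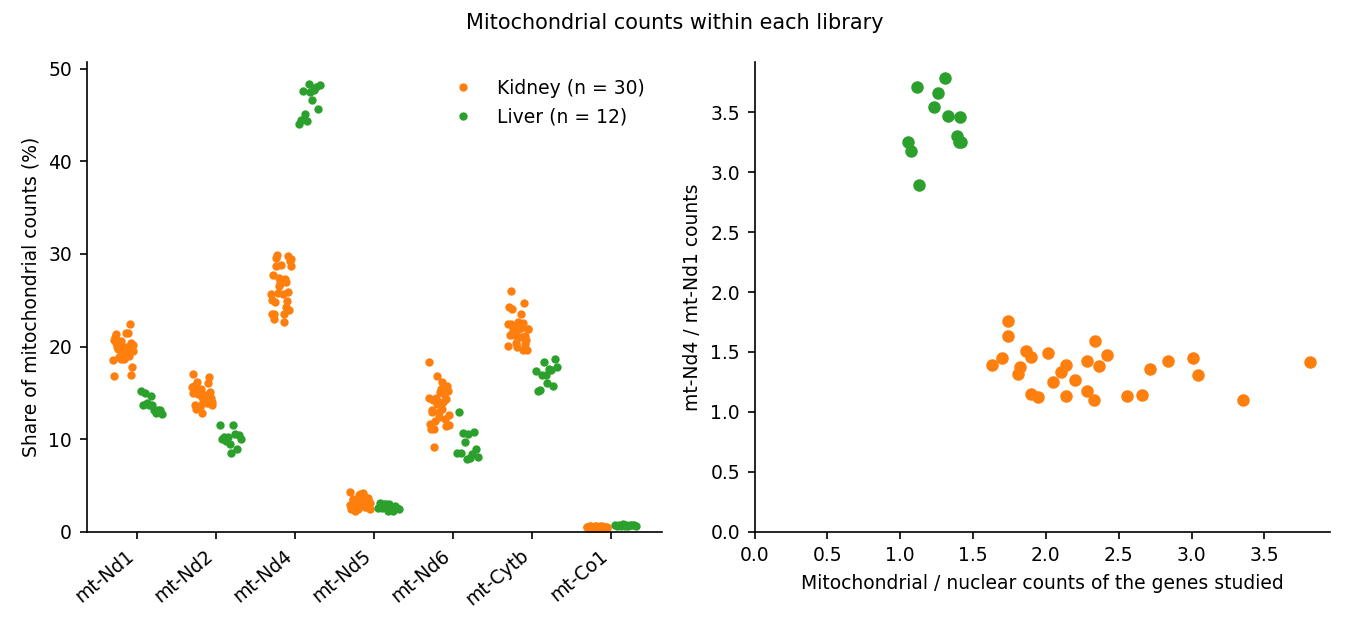
Left, the percent of mitochondrial counts taken by each mitochondrial gene in kidney and liver libraries. Right, the ratio of mt-Nd4 to mt-Nd1 counts against the ratio of mitochondrial to nuclear member counts, with a point per library, with the 12 liver libraries at 2.90 to 3.78 and the 30 kidney libraries at 1.10 to 1.76 on the first ratio.

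The counts of called genes in the neighbouring lists stand beside 77.4% of all genes called, 39.2% higher and 38.2% lower. Of 17 genes of the citric acid cycle list, 15 were called, 10 higher and 5 lower in kidney, among them Idh3g (log2 difference 2.11), which was higher, and Suclg1 (-1.55), which was lower. Of 13 carriers and related genes, 11 were called, 8 higher and 3 lower, led by the adenine nucleotide carrier Slc25a4 (4.69) and the ATP synthase inhibitor Atpif1 (2.63). Ubiquinone synthesis had 10 of 12 called, 6 higher and 4 lower, with Coq8a at -2.97. Assembly factors outside the rule had 24 of 31 called, 11 higher and 13 lower, a share at that of all genes, and regulators had 9 of 20 called, 3 higher and 6 lower. Among the regulators, Esrra (2.98) and its coactivator Ppargc1a (2.82) were higher in kidney. Ppargc1a was at 90.2 to 153 CPM in the kidneys and 9.18 to 16.0 CPM in the livers of mice given AS-703026.

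Whether a compound acted differently in the 2 tissues was tested as an interaction over the same 24 libraries. Of 100 members, 0 were called by edgeR (background 0.163% of 12262 genes), with 7 at an unadjusted p under 0.05 and 1 called by DESeq2. Without a liver control, this test compares only how the 3 compounds differed from each other in each tissue.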

How the data were processed

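The authors deposited raw counts for 43629 Ensembl genes in 42 libraries. Per the submitters' processing notes, reads were handled with bcl2fastq 1.8.4, Trimmomatic 0.32, STAR 2.5.2b and featureCounts 1.5 on the mm10 genome. The annotation release, strand setting, and handling of molecular identifiers and of reads with several matches were not given in the sources used here. Shared or overlapping 3′ ends can therefore move counts between genes. Symbols and coordinates came from GENCODE M21 (GRCm38), which matched 42548 genes and left 1081 unmatched, and upstream sequences from RefSeq (GRCm38.p6), matched for 79 of 99 nuclear members. Columns left unused numbered 0.

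Groups follow the labels' tissue and compound. Counts were filtered by filterByExpr and scaled by TMM, and edgeR 4.0.16 (quasi-likelihood test, R 4.3.3) was fitted once per tissue on all its libraries, with a further fit of the 24 libraries whose compound was used in both tissues. P-values were adjusted by Benjamini-Hochberg over all genes tested, 11719 in kidney, 9490 in liver and 12262 in the joint fit, with a threshold of 0.05. Levels are TMM-normalised CPM, and a sum runs over all members of a set. Of the 112 members, 98 were tested in kidney, 97 in liver and 100 in the joint fit. A member left out by the filter in kidney had 0 to 1094 counts over the 30 libraries. Precision follows the total counts, and the p-values measure the spread between these libraries.

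The other settings were DESeq2 1.42.0, RLE scaling, no filter, a replicate block, only the 2 groups compared, each library left out in turn, a covariate for the satellite-like share, library sizes without mitochondrial counts and, for levels, raw CPM. Chosen after seeing the data were a fit without kidney libraries where that share reached 5%, no scaling factor for kidney against liver, and leaving out AZD8055 replicate 4 as a setting of its own. The fit was also tested on simulated data. No 2 libraries were duplicates by a chi-square per gene, whose lowest value was 3.67.

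The members and lists were chosen with earlier results of these data known. Named genes were the mitochondrial members, the isoform sets, the Sdh genes, up to 12 called members per direction and comparison by size of change, or the 5 of smallest p where fewer passed, the 10 of smallest p in each F test, the called member of largest change in each complex, up to 4 called genes of each other list, and members left out by the filter. Those named for AZD8055 replicate 4 outside these were chosen after their values were seen. Motifs were searched on both strands.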

Additional observations from a re-analysis of the deposited data

Results flagged for a closer look

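AZD8055 replicate 4 accounted for 12 of 21 cases in which a kidney or liver library lay far from the others of its group by Dixon's criterion, over 191 groups of values. Chance alone gives such a case in about 1 of 20 groups when the values are independent and not chosen from the data. Here the single genes were a chosen list, among them members called under AZD8055, and the complex sums contain them. That rate therefore does not apply, and the tally is a description. In that library the summed levels were 14705 CPM for complex I (10411 to 11033 in the other AZD8055 libraries), 2875 CPM for complex II (1464 to 1589), 9361 CPM for complex III (5819 to 5996) and 13541 CPM for complex IV (8136 to 8962). Single genes of that library were Cox7a1 at 164 CPM (9.75 to 18.3 in the others), Cox6a1 at 3830 CPM (1538 to 1899), Sdha at 1520 CPM (552 to 671), Sdhb at 820 CPM (595 to 633) and Uqcrc1 at 913 CPM (407 to 479). Ndufa10 was at 825 CPM (352 to 375), Ndufb9 at 572 CPM (337 to 358) and Atp5k at 716 CPM (447 to 470). Cox8b, which was too low in kidney to be tested, was at 509 CPM there and at 0 to 3.26 CPM in the controls.

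Elsewhere, Cox7a1 was at 16.7 CPM in AS-703026 replicate 3 in kidney (9.49 to 10.5 in the others of its group), and Ndufa10 was at 257 CPM in AS-703026 replicate 4 (351 to 363). Ndufb11 was at 278 CPM in AZD8055 replicate 1 (294 to 296), a gap that is wide only beside the closeness of the other 3 libraries. The ATP synthase c subunit gene Atp5g1 was at 393 CPM in GDC-0941 replicate 3 (178 to 197), and Atp5g3 at 3525 CPM in ascorbyl-palmitate replicate 4 (4443 to 4527). Atp5k was at 658 CPM in ascorbyl-palmitate replicate 3 (517 to 531). Cycs was at 181 CPM in control 1 (243 to 278 in the other controls), and this is the control that the AS-703026 libraries overlapped. In liver, complex I summed to 5283 CPM in GDC-0941 replicate 2 (5565 to 5612 in the others) and complex III to 3270 CPM in AS-703026 replicate 1 (3554 to 3583).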

How the results depend on the processing

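Counts of called members moved with the setting, and the cause was not tested except where a setting removes libraries or genes. With DESeq2, 10 members were called for any difference in kidney, 4 under ascorbyl-palmitate, 2 under GDC-0941, 7 for any difference in liver, 4 and 8 in liver for AS-703026 against GDC-0941 and against enzastaurin, and 1 for the interaction. With no filter, 2 were called for any difference in kidney, 0 under AS-703026, 9 under AZD8055, 1 for any difference in liver, 0 for AS-703026 against enzastaurin and 1 against GDC-0941. With only the 2 groups compared, 0 were called under AS-703026, 0 under AZD8055, 0 in liver for AS-703026 against enzastaurin and 1 against GDC-0941. With a covariate for the satellite-like share, 0 were called under AS-703026 in kidney and 0 against enzastaurin in liver. Without the kidney libraries at 5% or above of that share, 0 were called under AS-703026 and 2 for any difference.

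With the replicate number as a block, 0 members were called under AS-703026, 0 under AZD8055, 0 for any difference in kidney and 0 in liver for AS-703026 against enzastaurin. The labels do not say that a number marks a shared animal or batch: 25 of 84 same-numbered pairs in kidney, 1 of 12 in liver and 4 of 60 in both correlated above 0.1, and 8 of 30, 2 of 12 and 6 of 24 libraries correlated best with their own number.

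Leaving out each library in turn gave 0 to 1 called members under AS-703026 in kidney, 0 to 2 under ascorbyl-palmitate, 0 to 24 under AZD8055, 0 to 0 under enzastaurin, 0 to 1 under GDC-0941, 0 to 1 under KU0063794 and 0 to 3 for any difference. In liver it gave 0 to 2 for AS-703026 against enzastaurin, 0 to 2 against GDC-0941 (2 without AS-703026 replicate 2), 0 to 0 for enzastaurin against GDC-0941 and 0 to 1 for any difference (1 without AS-703026 or enzastaurin replicate 2). Kidney against liver gave 75 to 83 and the interaction 0 to 0. Of the values of single members followed through the settings, 2393 kept their side of the threshold, 104 were weaker and 47 stronger. In kidney against liver with no scaling, 9 members turned from lower to higher. Among the 9 were Sdha, Sdhb and Sdhc, not followed in these counts, at 0.31, 0.36 and 0.50. The others were Ndufs6, Ndufb9, Ndufa13, Ndufa3 and Ndufv3 of complex I and the assembly factor Ndufaf7. In kidney 14 members had too few counts to be tested. Over all genes, calls under AZD8055 went from 640 to 27 with the block and to 1219 without the libraries rich in satellite-like counts. The latter fit kept only AZD8055 replicates 3 and 4, and replicate 4 is the library high in adipocyte markers.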
